A study of Macaca fascicularis and Macaca mulatta and Papio anubis with 20 samples.

Results

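The spots at the margin of dorsal root ganglion sections of Macaca fascicularis (cynomolgus macaque) were compared with the spots of the interior. A spot counted as edge when at least 1 of its 6 neighbours on the array lay off the tissue, and as interior when its 6 neighbours and all of their neighbours lay on tissue. This gave 4879 edge spots (22.3%) and 12816 interior spots (58.5%) among the 21897 tissue spots of 15 sections. A further 3985 spots (18.2%) formed the ring between them, called the second ring here, and 217 spots at the array border belonged to no class. The 15 sections came from 4 specimens, told apart by the codes in the sample titles: a female and a male in batch 1 and a female and a male in batch 2. The labels give no strain, age or treatment for them and do not state that each specimen is 1 animal.

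The series used Visium, a spatial assay in which each barcoded spot of a slide captures polyadenylated RNA from the tissue above it, counted as unique molecular identifiers (UMIs). The area above a spot can contain several cells of differing types, or only part of a cell. The ganglia were fresh frozen and cut at 10 µm, with 100 µm between sections, stained with hematoxylin and eosin, and permeabilized for 12 min. Over the whole series, the sections with a count matrix hold 32952 tissue spots, and 1 further section of the male specimen of batch 2 was not analysed here.

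A dorsal root ganglion holds the cell bodies of sensory neurons, each wrapped in satellite glia, and bundles of axons wrapped in Schwann cells. Outside it lies a connective tissue capsule that continues into the epineurium and the dura, with collagen-rich fibroblasts, blood vessels with smooth muscle, and the flat cells of the perineurium, which form a barrier around the nerve bundles. No anatomical annotation was used here: the only criterion was the distance of a spot from bare slide.

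**Figure D1:**
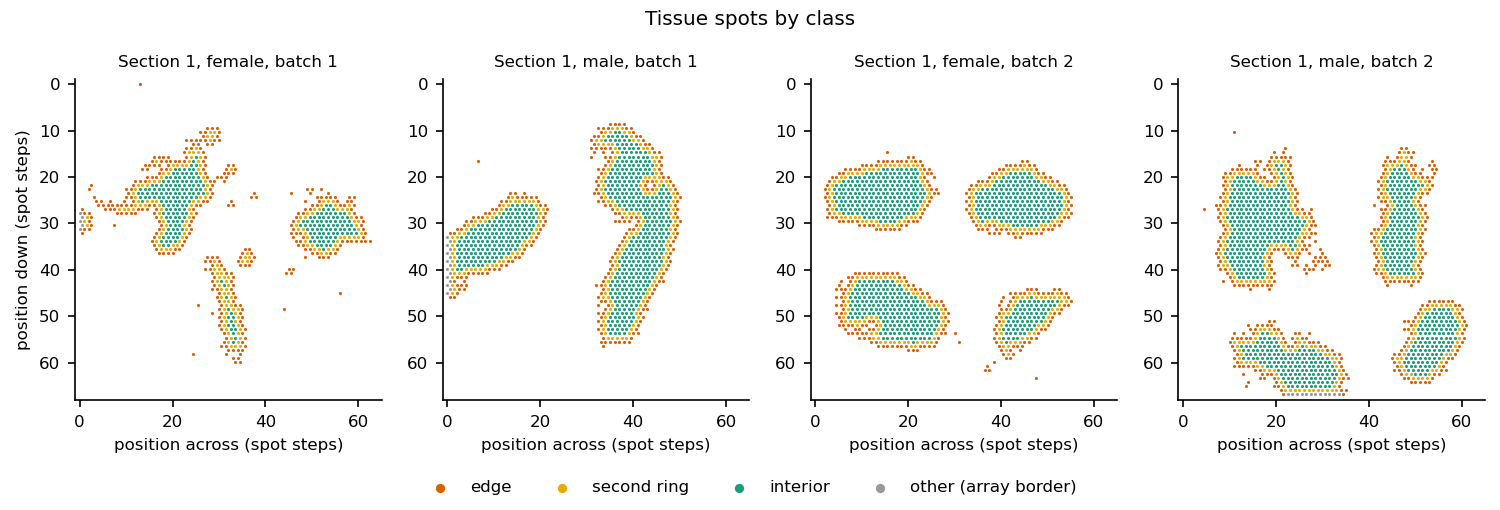
Array maps of section 1 of each of the 4 specimens, with array column and row as axes; each point is 1 tissue spot, coloured by class (edge, second ring, interior, other). The edge spots follow the outline of the tissue and the holes within it.

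Each section held 229 to 428 edge spots (median 313) and 206 to 1821 interior spots (median 845). The edge took 15.6% to 42.3% of a section's tissue spots (median 22.4%). Summed over sections, edge and interior held 3476529 and 9471104 UMIs in the female of batch 1, and 3473674 and 12345906 in the male of batch 1. They held 2694215 and 12580368 UMIs in the female of batch 2, and 1646908 and 3181172 in the male of batch 2. The male of batch 2 was the shallowest in both classes.

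Edge spots were not uniformly shallower than interior spots. The median UMI count of a section's edge spots ran from 235 to 2343.5 (median over sections 865), and that of its interior spots from 282.5 to 9969 (median 741.5). The edge median was above the interior median in 7 sections and below it in 8. The mean log2 ratio of edge to interior was -0.31 ± 0.38 (SD, n = 4 specimens; exact two-sided sign-flip permutation test, p = 0.375, where the smallest p that 4 specimens allow is 0.13). The specimens gave -0.74 and -0.52 in batch 1 (female, male) and 0.04 and -0.01 in batch 2. Single sections ranged from -2.92, in section 2 of the female of batch 1 (1318.5 against 9969 UMIs), to 1.49, in section 4 of the male of batch 2 (791 against 282.5 UMIs).

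The count fell off with the number of bare neighbours. The median of the section medians was 1131 UMIs in the 1525 edge spots with 1 off-tissue neighbour, 1099.5 in the 1665 spots with 2 and 833 in the 1190 spots with 3. It was 496.5 UMIs with 4 (303 spots), 265.25 with 5 (103 spots) and 59 with 6 (93 spots). Edge spots with at least 3 off-tissue neighbours lay below the interior median in 13 of 15 sections (mean log2 ratio -0.81 ± 0.61, SD, n = 4; exact permutation p = 0.13, again the smallest possible). At a fixed depth of 300 UMIs per spot, the number of genes detected differed by -1.44 ± 3.28 genes (SD, n = 4, exact permutation p = 0.75). Spots with fewer UMIs were left out, which kept 37.3% to 97.8% of a section's edge spots and 48.4% to 99.8% of its interior spots. The specimens gave -1.4 and 1.6 genes in batch 1 (female, male) and -6 and 0 in batch 2. Section medians at this depth were 237 to 262 genes at the edge and 247 to 261 in the interior, so the classes overlapped.

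Spots just outside the tissue also carried UMIs. In the first ring off tissue, the section medians were 49 to 170 UMIs (median 126), below the edge median in all 15 sections and equal to 5.35% to 21.7% of it. In the second ring off tissue they were 19 to 104. Off-tissue spots together took 1.92% to 17.9% of a section's UMIs. The part of RNA spread across the slide in the edge values was not tested. Levels off tissue are given below beside those of the edge for PLA2G2A, S100A9 and 6 of the marker lists, and not for the other genes and lists.

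**Figure D2:**
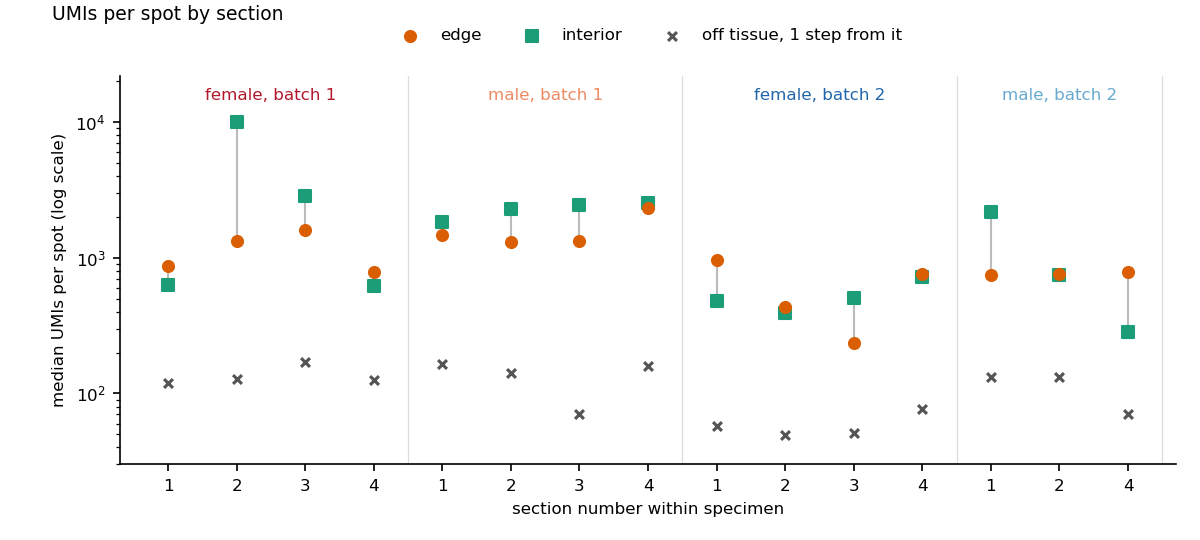
Median UMIs per spot (log axis) of the edge, the interior and the first ring of off-tissue spots in each of the 15 sections, grouped by specimen. Off-tissue medians sit at 49 to 170, under the edge median in every section, while edge and interior change order between sections.

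For gene expression, counts were summed over the edge spots and over the interior spots of each specimen, and the 8 sums were compared by edgeR's quasi-likelihood test with the specimen as a block. A gene was called at a Benjamini-Hochberg adjusted p under 0.05 over all 10288 genes tested. Of these, 312 (3.03%) were called: 247 (2.4%) higher at the edge and 65 (0.632%) lower. These 2 shares over all genes apply beside each marker list count of this comparison. The median log2 difference over all genes tested was 0.00. Without regard to the test, 1171 genes (11.4%) were higher at the edge in each of the 4 specimens and 1013 (9.85%) were lower or equal in each. No gene had edge and interior levels that did not overlap over the 15 sections (0 of 10288, 0%). Levels are given as CPM, the count of a gene per 1000000 UMIs of its class. In a sum over spots, fewer cells of a type and less RNA per cell cannot be told apart. The p-values of this test rest on the spread between these 4 specimens. For each gene, the test also draws the estimate of that spread toward the other genes. A very small p-value therefore does not come from the 4 specimens' values of that gene alone.

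Genes of connective tissue sheath fibroblasts rose at the edge. Of the 16 tested genes in the list of sheath fibroblast markers, 13 rose at the edge and 0 fell, with a median log2 difference of 0.92 against 0.00 over all genes; the share of all genes called higher was 2.4%. The summed level of the list at the edge was 5259 and 5695 CPM in the female and male of batch 1, and 3709.8 and 1509.5 CPM in those of batch 2. In the interior it was 3369, 2622, 1259.9 and 1178 CPM in the same order. The edge was higher in each specimen and in 14 of 15 sections, and the 2 classes overlapped across specimens because the male of batch 2 was low in both.

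SFRP4 (ENSMFAG00000039798), a secreted Wnt-binding protein, reached 626 and 910.0 CPM at the edge in the female and male of batch 1, and 67.6 and 17.0 CPM in the corresponding specimens of batch 2. Interior levels were 135, 125, 9.70 and 8.17 CPM. The batches differed in level by more than the classes did, yet within every specimen the edge was higher, and SFRP4 rose 5.65-fold (log2 2.50, SE 0.15, adjusted p = 2.1e-06). It was higher at the edge in 14 of 15 sections, with section levels of 4.37 to 1301 CPM at the edge and 3.27 to 736 CPM in the interior.

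FBLN1 (ENSMFAG00000040388), fibulin-1 of the extracellular matrix, lay at 111, 151, 92.0 and 34.6 CPM at the edge and at 27.1, 28.8, 12.2 and 10.7 CPM in the interior. All 4 edge values exceeded all 4 interior values, and the log2 difference was 2.34 (SE 0.13, adjusted p = 2.1e-06). MFAP5, a microfibril protein, lay at 69.0, 73.7, 55.3 and 10.9 CPM at the edge and at 20.4, 12.4, 8.43 and 4.72 CPM in the interior, and was higher at the edge in 15 of 15 sections (log2 2.24, SE 0.17, adjusted p = 1.13e-05). For comparison, 24 of the 10288 genes (0.233%) were higher at the edge in all 15 sections. EFEMP1, fibulin-3, rose by a log2 of 2.04 (SE 0.13, adjusted p = 2.26e-06), and SFRP2, a relative of SFRP4, by 2.13. In the male of batch 2 SFRP2 ran the other way (log2 ratio -0.96), and its call was lost with DESeq2 (adjusted p = 0.142).

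MGP, matrix Gla protein, an inhibitor of calcification made by fibroblasts and vascular smooth muscle, lay at 187, 202, 147 and 24.9 CPM at the edge against 35.8, 32.6, 29.1 and 14.8 CPM (log2 2.31, SE 0.15, adjusted p = 3.95e-06). Its difference was smallest in the male of batch 2, whose edge level fell inside the range of the interior levels. ANGPTL7, a secreted angiopoietin-like protein, lay at 106, 94.4, 241 and 41.3 CPM at the edge and at 48.7, 38.3, 27.7 and 18.5 CPM in the interior (log2 1.78, SE 0.27, adjusted p = 0.00264), with the widest gap in the female of batch 2. Of other sheath markers, chosen after their values were seen, CCDC80 rose by a log2 of 2.29, IGFBP6 by 1.31, CLEC3B by 0.74 and GSN by 0.56. CCDC80 was lower at the edge in the male of batch 2 (log2 ratio -0.90), and its call was lost with DESeq2 (adjusted p = 0.567) and without the male of batch 1 (adjusted p = 0.071). The IGFBP6 call was lost in the same fits, and those of CLEC3B and GSN without the male of batch 1. Members of the list without a call, chosen in the same way, included LUM, lumican, at 0.07 (adjusted p = 0.855), and PI16, at 0.12 (adjusted p = 0.803).

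The structural matrix genes that were called also rose at the edge, to differing degrees. Their lists share members with the sheath list, so they are not separate groups of genes. The calls of DCN, OGN, COL1A1, COL1A2, COL3A1, MFAP5 and FBLN1 below were already counted among the sheath genes. Of 7 small leucine-rich proteoglycans tested, proteins that bind collagen fibrils, 6 rose and 0 fell (median log2 1.13). The share of all genes called higher was 2.4%. BGN, biglycan, lay at 58.1, 67.9, 21.9 and 6.07 CPM at the edge and at 26.3, 22.2, 6.76 and 2.51 CPM in the interior (log2 1.43, SE 0.12, adjusted p = 4.38e-05). FMOD, fibromodulin, rose by a log2 of 2.23, PODN by 1.24 and OGN by 0.98. In the male of batch 2 the log2 ratio was -0.52 for OGN and -0.03 for FMOD, so neither was higher at the edge there. DCN, decorin, was outside the naming rule. It lay at 1026, 940, 821 and 167 CPM at the edge against 666, 487, 217 and 145 CPM (log2 0.96, adjusted p = 0.0145). The DCN call was lost with DESeq2 and without the male of batch 1.

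Of 9 collagen chains tested, 4 rose and 0 fell (median log2 0.55), against 2.4% of all genes called higher. COL3A1, a fibrillar chain of loose connective tissue, lay at 137 and 144 CPM at the edge in batch 1, and at 1.48 and 3.04 CPM in batch 2, against 85.3, 70.0, 0.238 and 0.943 CPM in the interior (log2 0.88, SE 0.12, adjusted p = 0.00112). COL1A1, a chain of type I collagen, lay at 215, 202, 5.94 and 4.86 CPM against 164, 105, 0.636 and 1.89 CPM (log2 0.74, SE 0.17, adjusted p = 0.0335). Both were far lower in batch 2 than in batch 1 in each class, and both were higher at the edge in each specimen. COL16A1 rose by a log2 of 1.13 and COL1A2 by 0.54, the latter with a log2 ratio of -0.28 in the male of batch 2. The calls of COL3A1, COL1A1 and COL1A2 were lost with DESeq2. Without the male of batch 1, all 4 collagen calls were lost. The summed level of the collagen list had a log2 ratio of 0.39 and 0.88 in batch 1 (female, male) and 0.50 and -0.09 in batch 2. Among 13 genes of elastic fibres and matrix remodelling, 5 rose and 0 fell, including MFAP4, a microfibril-associated protein (log2 1.15, with -0.05 in the male of batch 2).

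Genes of smooth muscle, which lies in the walls of arteries and veins, also rose at the edge. Of 6 tested genes of smooth muscle and pericytes, 4 rose and 0 fell, against 2.4% of all genes called higher. Their median log2 difference was 1.93. The summed level was 806, 896, 619 and 262 CPM at the edge and 351, 292, 242 and 178 CPM in the interior, higher at the edge in 14 of 15 sections. ACTA2 (ENSMFAG00000000205), smooth muscle actin, lay at 200.5, 224, 64.2 and 31.6 CPM at the edge and at 31.6, 26.1, 13.4 and 9.12 CPM in the interior. The lowest edge value, in the male of batch 2, met the highest interior value, in the female of batch 1; the means were 130.1 ± 96.4 and 20.03 ± 10.5 CPM (SD, n = 4). ACTA2 rose 6.29-fold (log2 2.65, SE 0.14, adjusted p = 1.45e-06) and was higher at the edge in 15 of 15 sections.

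TAGLN, transgelin, an actin-binding protein of smooth muscle, lay at 259, 305, 395 and 136 CPM at the edge and at 78.8, 66.8, 119 and 65.1 CPM in the interior, so that every edge value lay above every interior value (log2 1.73, SE 0.12, adjusted p = 7.11e-06). CNN1, calponin, rose by a log2 of 2.42 (SE 0.30, adjusted p = 0.000705) and DES, desmin, by 2.14 (SE 0.33, adjusted p = 0.00298). The members without a call were MYL9, at 0.40 (adjusted p = 0.083), and the pericyte gene RGS5, at 0.26 (adjusted p = 0.375). Of 10 listed genes of skeletal muscle, another source of actin and desmin, only 5 could be matched by symbol. MYH1, MYH2, CKM, MYLPF and TTN were not among them. The matched genes summed to 50.3, 18.7, 29.7 and 10.9 CPM at the edge and 14.04, 14.98, 18.04 and 9.43 CPM in the interior. That sum was higher at the edge in each specimen and in 12 of 15 sections, with 2 genes tested (median log2 1.06) and 0 called. The part of skeletal muscle in these rises was not tested.

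Endothelial genes also rose, by smaller amounts. Of 7 tested, 4 rose and 0 fell (median log2 0.83), against 2.4% of all genes called higher. The summed level was 343, 359.9, 338 and 309 CPM at the edge against 259, 235, 212 and 238 CPM in the interior. The 4 edge values did not overlap the 4 interior values, and the edge was higher in 14 of 15 sections. VWF, von Willebrand factor, lay at 67.9, 57.6, 95.4 and 89.3 CPM at the edge against 37.5, 28.8, 48.8 and 66.3 CPM (log2 0.83, SE 0.09, adjusted p = 0.000386). PECAM1, an adhesion molecule of endothelial junctions, and CDH5, VE-cadherin, each rose by a log2 of 0.89, and ESAM by 0.62. ACKR3, a scavenging chemokine receptor, rose by 1.99 (SE 0.20, adjusted p = 0.000193) and was higher in 15 of 15 sections.

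Among 5 tested genes of the perineurium, 2 rose and 0 fell (median log2 0.49), against 2.4% of all genes called higher. SLC2A1, the glucose transporter GLUT1 of barrier cells, lay at 202, 296, 277 and 49.2 CPM at the edge and at 94.9, 99.7, 79.9 and 62.6 CPM in the interior (log2 1.22, SE 0.20, adjusted p = 0.00529). The male of batch 2 was the exception, with an edge level under its interior level. The SLC2A1 call was lost with DESeq2 and without the male of batch 1 or the female of batch 2. TJP1, the tight junction scaffold ZO-1, rose by a log2 of 0.49 (SE 0.10, adjusted p = 0.0235), while PERP, at 0.65 (adjusted p = 0.059), and ITGB4, at 0.27 (adjusted p = 0.057), missed the threshold. PTGDS, the only tested gene of the meninges list, rose by 0.55 (adjusted p = 0.0334).

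**Figure D3:**
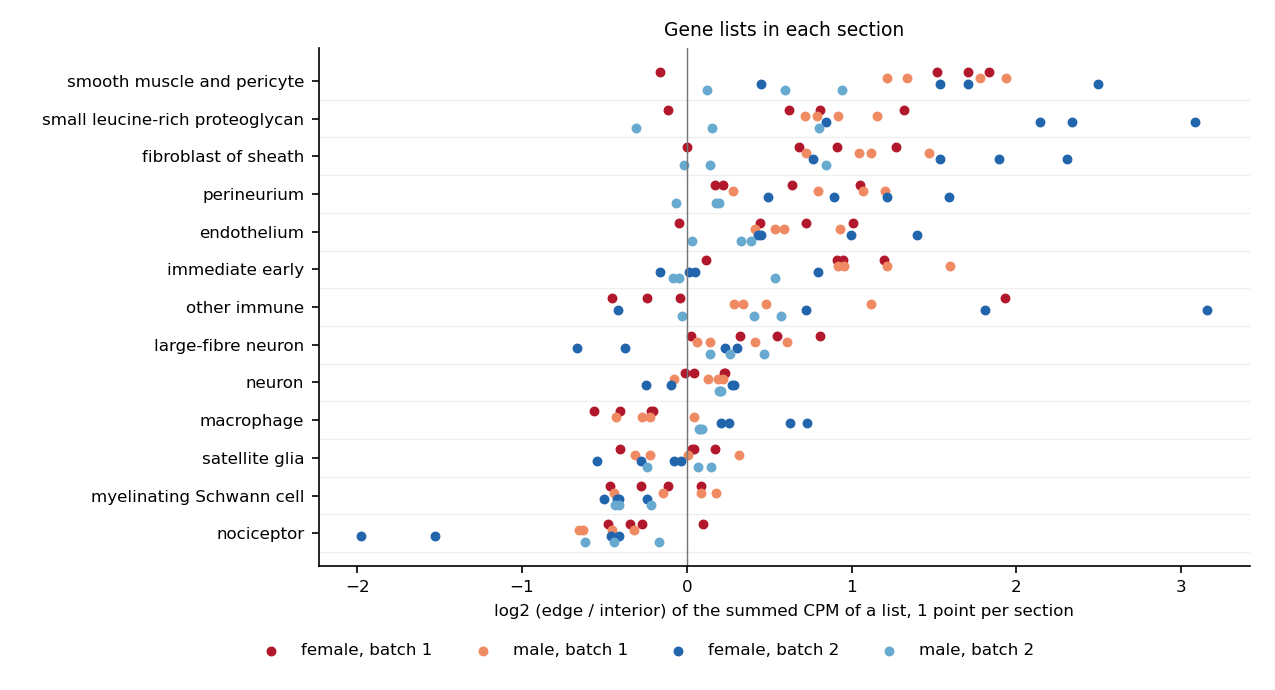
Log2 ratio of the summed CPM of 13 marker lists, edge over interior, with 1 point per section coloured by specimen; 0 means equal levels. Sheath fibroblast, smooth muscle and endothelial lists lie above 0 in 14 of 15 sections, and the nociceptor list lies above 0 in 1.

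Of 4 adipocyte genes tested, 1 rose and 0 fell, with a median log2 difference of -0.04. FABP4, a fatty acid carrier of adipocytes and of capillary endothelium, lay at 71.6, 72.5, 85.7 and 10.9 CPM at the edge and at 7.18, 15.1, 4.53 and 4.72 CPM in the interior (log2 3.02, SE 0.27, adjusted p = 5.77e-05). Only the male of batch 2 had an edge level within the range of the interior levels. The other 3 adipocyte genes tested gave no call, among them LPL, lipoprotein lipase, at -0.19 (adjusted p = 0.119).

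PLA2G2A (ENSMFAG00000046389), a secreted phospholipase, had the largest rise among called genes with a symbol, a mean of at least 20 CPM and the same direction in all 4 specimens, and its levels differed between the batches. At the edge it lay at 2.01 and 5.47 CPM in batch 1 (female, male) and at 1615 and 299 CPM in batch 2; in the interior it lay at 0.528, 0.324, 77.1 and 80.5 CPM (log2 3.34, SE 0.39, adjusted p = 0.000492). The batch 1 edge values were below the batch 2 interior values. Off-tissue spots 1 step from the tissue held 3260 and 461 CPM of it in batch 2. The first ring off tissue, at a mean of 932 CPM, lay above the edge mean of 480.4 CPM.

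Of 6 tested genes of immune cells other than macrophages, 2 rose and 0 fell, against 2.4% of all genes called higher. S100A9, a calcium-binding protein of neutrophils and monocytes, lay at 38.5, 22.2, 80.9 and 219 CPM at the edge and at 5.81, 3.32, 21.8 and 124 CPM in the interior (log2 1.73, SE 0.24, adjusted p = 0.00128). Its partner S100A8 lay at 45.4, 28.5, 83.5 and 376 CPM against 7.71, 4.54, 19.4 and 315 CPM (log2 1.51, SE 0.31, adjusted p = 0.0178). The male of batch 2 had the highest level of both genes in each class and the smallest ratio of edge to interior. The S100A8 call was lost without either specimen of batch 1 and without the female of batch 2, while S100A9 stayed called in those fits. In the first ring off tissue, mean S100A9 was 247 CPM, above the edge mean of 90.1 CPM.

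Immediate-early genes, which cells induce rapidly after a stimulus, were higher at the edge in batch 1. Of 10 listed genes, 7 were matched by symbol, and JUNB, ATF3 and IER2 were not. Of 5 tested, 4 rose and 0 fell (median log2 0.72), against 2.4% of all genes called higher. The summed level was 1565, 1276, 381 and 994 CPM at the edge and 622, 547, 315 and 897 CPM in the interior, so the log2 ratio was 1.33 and 1.22 in batch 1 and 0.27 and 0.15 in batch 2. FOS, a subunit of the transcription factor AP-1, lay at 562 and 335 CPM at the edge against 124 and 95.6 CPM in batch 1. In batch 2 it lay at 46.4 and 162 CPM against 35.6 and 171 CPM. The fit gave a log2 of 1.23 (SE 0.28, adjusted p = 0.0349) over all specimens. DUSP1, a phosphatase of MAP kinases, rose by 0.72 (SE 0.12, adjusted p = 0.00488) and ZFP36, which destabilizes mRNAs, by 0.81 (SE 0.17, adjusted p = 0.0203). The nuclear receptor NR4A1 rose by 0.63 (SE 0.09, adjusted p = 0.00249), and JUN, at 0.52, gave no call (adjusted p = 0.0934). The FOS and ZFP36 calls were lost with DESeq2 and without either specimen of batch 1, and FOS also without the female of batch 2. Those of DUSP1 and NR4A1 were lost without the male of batch 1.

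The edge difference itself differed between batches for 11 of 10288 genes (0.107%), 7 of them with a symbol. In a fit of the interaction of class and batch, the difference was smaller in batch 2 for FOS (log2 -1.87, adjusted p = 6.88e-05), ZFP36 (-1.09, adjusted p = 0.00132), JUN (-0.95, adjusted p = 0.00549) and DUSP1 (-0.71, adjusted p = 0.0296). It was larger in batch 2 for the macrophage scavenger receptor STAB1 (1.5, adjusted p = 0.0207), the complement subunit C1QC (0.71, adjusted p = 0.0209) and the interferon-induced IFI27 (1.51, adjusted p = 0.0209). Batch went together with the version of the counting software and with the specimens, so these cannot be told apart. Between sexes, 0 genes differed in the edge difference by edgeR's test (182 at an unadjusted p under 0.05; limma-voom also gave 0).

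STAB1 lay at 29.3 and 30.5 CPM at the edge in batch 1, below the interior levels of 41.6 and 37.6 CPM, and at 25.2 and 15.2 CPM in batch 2, above the interior levels of 11.6 and 7.54 CPM. C1QC, at 438, 419, 388 and 455 CPM at the edge and 576, 513, 297 and 362 CPM in the interior, changed sides in the same manner. Of 8 tested macrophage genes, 0 were called over all specimens (median log2 0.02), and the log2 ratio of their summed level was -0.29 and -0.25 in batch 1 and 0.33 and 0.23 in batch 2. The batch difference of the list as a whole was not tested.

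Genes of sensory neurons were among those that fell at the edge. Of 15 tested genes of nociceptors, the neurons that sense harmful stimuli, 6 fell and 0 rose (median log2 -0.40), and all 15 had a value below 0; the share of all genes called lower was 0.632%. The summed level was 2925, 2944, 1795 and 3146 CPM at the edge and 3273, 4142, 2752 and 4016 CPM in the interior. It was lower at the edge in each specimen and in 14 of 15 sections, while the ranges over specimens overlapped.

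SCN11A (ENSMFAG00000041137), the sodium channel Nav1.9 of nociceptors, lay at 294, 365, 106 and 253 CPM at the edge and at 373, 514, 184 and 376 CPM in the interior. Its edge level was 68.4% of the interior level (log2 -0.55, SE 0.07, adjusted p = 0.00128), and it was lower at the edge in all 15 sections, as were 23 of the 10288 genes (0.224%). Section levels ran from 34.6 to 546 CPM at the edge (median 214) and from 121 to 838 CPM in the interior (median 353). TAC1, the precursor of substance P, lay at 862, 738, 376 and 893 CPM at the edge against 968, 1187, 541 and 1149 CPM (log2 -0.44, SE 0.08, adjusted p = 0.00877), and was also lower in all 15 sections.

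CALCA, the precursor of the peptide CGRP, lay at 383, 413, 261 and 504 CPM at the edge against 484, 548, 492 and 617 CPM (log2 -0.49, SE 0.09, adjusted p = 0.011). TRPV1, the capsaicin receptor, lay at 75.1, 54.1, 62.7 and 46.1 CPM against 82.6, 86.99, 116 and 62.9 CPM (log2 -0.55, SE 0.11, adjusted p = 0.0162). In both genes each specimen was lower at the edge, while the ranges over specimens overlapped. CALCB and GFRA3, the receptor of artemin, both outside the naming rule, fell by 0.34 (adjusted p = 0.0268) and 0.35 (adjusted p = 0.0268).

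The genes of largest fall also included some outside the nociceptor list. SYNPR, synaptoporin of synaptic vesicles, lay at 59.0, 66.8, 67.9 and 83.8 CPM at the edge and at 59.7, 102, 124 and 183 CPM in the interior (log2 -0.66, SE 0.13, adjusted p = 0.0163); the female of batch 1 hardly differed. EDN3, endothelin-3, fell by 0.76 (SE 0.16, adjusted p = 0.0189), the largest fall among called genes with a symbol, a mean of at least 20 CPM and the same direction in all 4 specimens. GRIK1, a kainate receptor subunit, fell by 0.58, SYNGR4 by 0.62, the prostaglandin D2 receptor PTGDR by 0.54, FAM3B by 0.51, MMD by 0.49 and PRKCD by 0.48.

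General neuron genes, which check the label of the tissue, were abundant in both classes. Of 14 general neuron genes tested, 0 were called (median log2 -0.03), and their summed level was 30806, 31169, 32088 and 25008 CPM at the edge and 31951, 29083, 30089 and 21092 CPM in the interior, higher at the edge in 11 of 15 sections. NEFH, the heavy neurofilament chain of large axons and neurons, lay at 7011, 6856, 6554 and 3639 CPM against 7318, 5431, 4781 and 1916 CPM, higher at the edge in 13 of 15 sections without passing the test (log2 0.40, SE 0.12, adjusted p = 0.101). NEFL, the light chain, gave 0.23 (adjusted p = 0.149). Of 8 tested genes of large-fibre neurons, 0 were called (median log2 0.10); PVALB gave 0.17 and SPP1 0.11. Whether nociceptor genes fell more than large-fibre genes was not tested.

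Genes of myelin were a further group with falls. Of 11 tested genes of myelinating Schwann cells, 2 fell and 0 rose (median log2 -0.39), and all 11 had a value below 0. The share of all genes called lower was 0.632%. The summed level was 5596, 5262, 1852 and 2779.8 CPM at the edge and 6644, 5520.1, 2452 and 3629 CPM in the interior, lower at the edge in each specimen and in 12 of 15 sections. PRX, periaxin, fell by 0.41 (SE 0.09, adjusted p = 0.0357), and PMP22, at -0.25, missed the threshold (adjusted p = 0.0582). Of 8 tested genes of satellite glia, 1 fell, the fatty acid carrier FABP7 (log2 -0.33, SE 0.07, adjusted p = 0.02), and the list's median was -0.06. Of 5 genes shared by both glial types, 0 were called.

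Housekeeping and stress lists had few calls, and some of their members could not be matched by symbol. Of 8 listed heat shock genes only 3 were matched, and HSPA1A, HSPA1B, HSPA8, HSPB1 and HSPE1 were not among them. Of 9 listed metallothioneins, 3 were matched. Of 35 ribosomal protein genes tested, 0 were called (median log2 -0.01). Among 3 heat shock genes 1 rose, DNAJB1 (log2 1.04, adjusted p = 0.0158), and among 6 hypoxia genes 1 rose, ADM, adrenomedullin, which vessels also make (log2 0.74, adjusted p = 0.0012). Of 8 basement membrane genes 1 rose, LAMB2 (log2 0.55). The lists of endoneurial fibroblasts (2 genes), metallothioneins (1 gene) and central nervous system glia (1 gene) had 0 calls. Only 4 of the 9 genes of the red blood cell list could be matched by symbol, and HBB, HBA1, HBA2, HBM and HBD were not among them. None of the matched genes passed the filter on low counts, and their summed edge level was at most 17.5 CPM in any section. Without the hemoglobin genes, the list cannot show whether blood was present. No mitochondrially encoded gene could be matched by symbol.

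**Figure D4:**
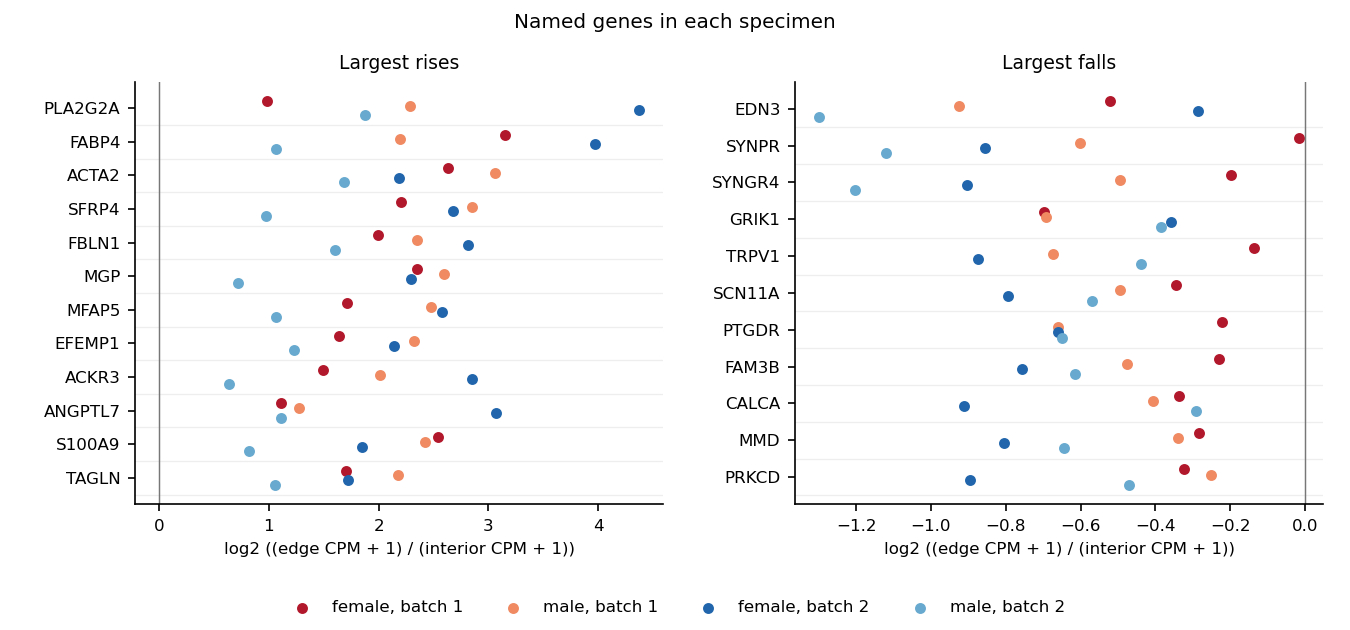
Log2 ratio of edge CPM to interior CPM (1 CPM added to each) for the 12 genes of largest rise and 11 of the genes of largest fall, with 1 point per specimen. The male of batch 2 gives the smallest ratio in 10 of the 12 rises, and the female of batch 1 the smallest fall in 7 of the 11 falls.

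The specimens differed in how far edge and interior lay apart. Over the 12 genes of largest rise, the median log2 ratio was 1.85 and 2.34 in batch 1 (female, male) and 2.63 and 1.06 in batch 2; the male of batch 2, the shallowest specimen, gave the smallest ratio for 10 of the 12. Over 11 of the genes of largest fall, the medians were -0.28, -0.49, -0.80 and -0.62. Section 4 of the female of batch 1 stood apart from its 3 companions: its log2 ratio was 0.00 for the sheath list, -0.16 for smooth muscle, -0.05 for endothelium and 0.10 for nociceptors. Its off-tissue spots at 3 or more steps also held a median of 102 UMIs, against 8 to 45 in the other sections. Without it, 386 genes were called in place of 312, and 13 of the 16 sheath genes and 5 of the 6 smooth muscle genes were called.

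Among the 4 specimens left out in turn, the male of batch 1 lowered the count of calls most. Without that specimen, 80 genes were called (75 higher, 5 lower), with 4 sheath genes, 4 smooth muscle genes, 1 endothelial gene and 1 nociceptor gene among them. Without the female of batch 2, 152 genes were called, 12 of them sheath genes and 2 nociceptor genes, and without section 4 of that specimen 222 were called, with 10 sheath genes and 3 nociceptor genes.

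Levels of the sheath and vessel lists dropped most between the outermost spots and the next ring. Ring 1 is the edge itself. Averaged over the 4 specimens, the sheath list summed to 4043 CPM there, 2653 CPM in ring 2, 2229 CPM in rings 3 to 4, 2064 CPM in rings 5 to 6 and 2148 CPM at 7 or more steps. Smooth muscle genes gave 646, 366, 270, 269 and 290 CPM over the same zones. SFRP4 fell from 405 CPM in ring 1 through 192, 92.0 and 57.9 CPM to 54.9 CPM, and SLC2A1 from 206 CPM to 74.8 CPM. Nociceptor genes ran the other way, at 2703, 3171, 3508, 3608 and 3388 CPM, as did Schwann cell genes, at 3873, 4244, 4632, 4674 and 4646 CPM. Single specimens departed from these means at 7 or more steps. In the female of batch 1 the sheath list there was above ring 2 (4047 against 3789 CPM). So were the smooth muscle list (521 against 495 CPM) and the endothelial list (325 against 260 CPM) of that specimen. These 3 levels stayed below its edge levels of 5259, 806 and 343 CPM. The nociceptor list at 7 or more steps was below the edge in the female of batch 1 (2710 against 2925 CPM). The Schwann cell list was below the edge in the male of batch 1 (4661 against 5262 CPM). These levels share sections and libraries and are given without a test.

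Off the tissue, the first ring held 4788 CPM of the sheath list and 774 CPM of the smooth muscle list, above the edge. It held 2863 CPM of the nociceptor list against 2703 CPM at the edge, and 1103 CPM of the immediate-early list against 1054 CPM. For the Schwann cell list it held 3837 CPM against 3873 CPM, and for the endothelial list 318 CPM against 337 CPM. These are means over the 4 specimens, given without a test. Edge spots beside enclosed holes gave 3414 CPM of the sheath list and 594 CPM of the smooth muscle list, against 4081 and 649 CPM along the outer edge. These are also means over specimens, and the male of batch 2 had only 12 spots beside holes, all in section 2. The 2 kinds of edge were not tested against each other.

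**Figure D5:**
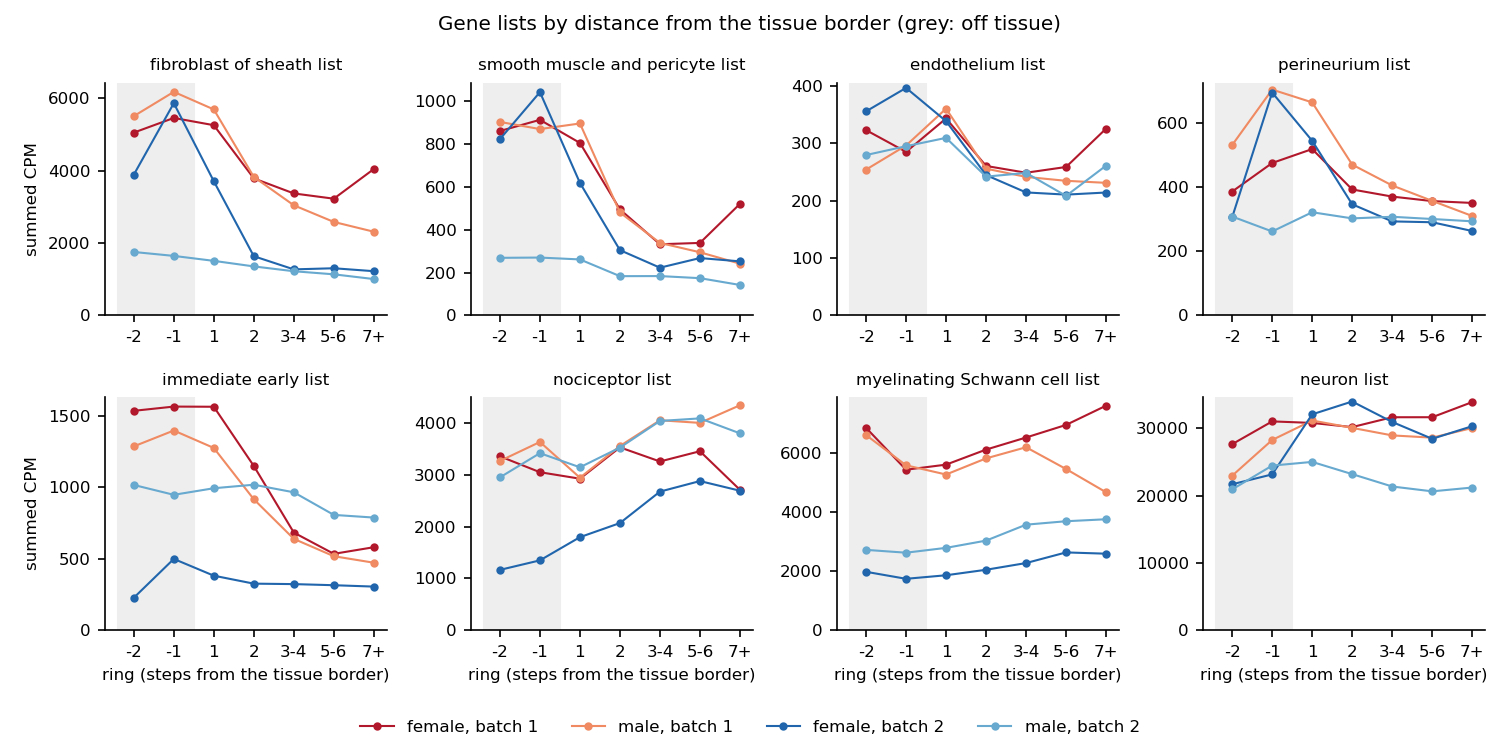
Summed CPM of 8 marker lists by zone, from 2 steps off tissue through the edge (ring 1) to 7 or more steps inside, with 1 line per specimen. Averaged over the 4 specimens, the sheath list drops from 4043 CPM in ring 1 to 2653 CPM in ring 2, and the nociceptor list climbs from 2703 to 3171 CPM.

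The second ring was tested against the interior in the same way. Of 10329 genes, 94 (0.91%) were called, 78 (0.755%) higher and 16 (0.155%) lower. This comparison shares the interior spots with that of the edge, so the values are set side by side only. ACTA2 rose by a log2 of 1.54 in the second ring (adjusted p = 1.13e-10) against 2.65 at the edge, SFRP4 by 1.42 (adjusted p = 1.13e-10) against 2.50, and PLA2G2A by 1.67 (adjusted p = 3.52e-11) against 3.34. SLC2A1 rose by 0.56 (adjusted p = 8.94e-05) and FOS by 0.95 (adjusted p = 0.000891). TRPV1 fell by 0.39 (adjusted p = 0.0081), CALCA by 0.31 (adjusted p = 0.00679) and FABP7 by 0.29 (adjusted p = 0.0068).

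By list, the second ring had 8 of 16 sheath genes, 4 of 6 smooth muscle genes, 5 of 7 proteoglycans, 5 of 5 immediate-early genes, 1 of 9 collagen chains and 1 of 5 perineurial genes called higher. The sheath, proteoglycan and collagen lists share members here too. The second ring had 2 of 15 nociceptor genes called lower. Of 7 endothelial genes, 0 were called there, and VWF gave 0.24 (adjusted p = 0.328) against 0.83 at the edge. Whether any gene or list differs between the edge and the second ring was not tested.

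The share of a spot's UMIs from the general neuron list overlapped between the 2 classes. Section medians were 0.904% to 2.61% at the edge (median 2.08%) and 1.79% to 2.65% in the interior (median 1.91%). Within sections the direction varied. The edge median was far below the interior median in sections 1 and 3 of the female of batch 2. It was also well below in section 1 of the female of batch 1. In each section of the male of batch 2 the edge median was above the interior median. Among spots at or below their section's median share, 548 of 8254 genes tested were called (444 higher, 104 lower). They included 12 sheath, 6 smooth muscle, 6 endothelial and 6 nociceptor genes. Among the spots above it, an alternative chosen after the data were seen, 202 of 9787 genes tested were called (128 higher, 74 lower). They included 8 sheath, 2 smooth muscle, 1 endothelial and 4 nociceptor genes. The 2 fits tested different sets of genes, so their list counts cannot be compared directly.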

How the data were processed

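UMI counts per gene and spot were deposited by the authors as unfiltered matrices over all 4992 array positions, made with Space Ranger 2.0.0 in batch 1 and 2.1.0 in batch 2, per the file headers, so version and batch go together. Tissue calls and array positions are the authors'; whether tissue was marked by hand is not given in the sources used here. The authors also deposited, per section, a Moran's I score of spatial clustering with an adjusted p-value for each gene. The processing notes name the build Mmul_10, whereas the gene IDs are those of M. fascicularis, so the build is unsettled and no coordinates are given. Of 22000 features 15068 carry a symbol, and the rest hold 18.7% to 24.3% of the UMIs. Summed tissue counts and the deposited totals per gene differed for 0 of 207382 values. All sections share the same array barcodes, which are positions and not cells. A chi-square test between sections of one specimen (21 pairs) gave at least 3.03 per degree of freedom, so no 2 sections of one specimen were taken for the same library; pairs between specimens were not compared.

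Edge, second ring and interior spots were set by array position, and counts were summed by class over each specimen. The sums were fitted with edgeR 4.0.16 in R 4.3.3 (TMM scaling, filterByExpr, quasi-likelihood test, specimen as a block because both classes come from the same sections). Interactions of class with batch and with sex were fitted likewise. On simulated counts over 10288 genes for edge against interior, 92% of 2-fold and 100% of 4-fold changes were recovered, with 13 false calls. CPM is over all features. Ratios per specimen add 1 CPM. Alternatives used DESeq2 1.42.0, limma 3.58.1 (voom), other scalings, filters, depths and class definitions, and left out each section and specimen. Genes were named by a rule: the 12 largest log2 differences in each direction among called genes with a symbol, a mean of at least 20 CPM and the same direction in 4 of 4 specimens, up to 4 members of each of 29 marker lists by p, and 5 genes per interaction; some items that the rule picks are not reported here. The rule, the members and the lists were chosen with earlier results of these data known. The labels do not state that the specimens are separate animals, so p-values may in part measure technical spread.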

Additional observations from a re-analysis of the deposited data

Results flagged for a closer look

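In 12 of 144 groups of 4 values, 1 value lay far from the other 3 by Dixon's criterion, which by chance marks about 1 in 20 groups. Among sections, the edge took 17.1% of the tissue spots in section 4 of the male of batch 1, against 22.2% to 22.6% in its companions. In section 4 of the female of batch 1 the log2 ratio of edge to interior was 0.056 for the collagen list (companions 0.64 to 0.75) and -0.16 for the smooth muscle list (1.52 to 1.84). In section 3 of that specimen it was 0.23 for the elastic fibre and matrix list (companions -0.19 to -0.13) and 0.36 for the adipocyte list (-0.23 to -0.17).

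Among specimens, the male of batch 2 stood apart for 3 genes, with a log2 ratio of 0.72 for MGP (others 2.30 to 2.60), 0.26 for S100A8 (2.05 to 2.42) and -0.62 for RGS5 (0.33 to 0.39). The female of batch 2 stood apart for ANGPTL7, at 3.07 (1.11 to 1.28). The female of batch 1 stood apart for COL3A1, at 0.68 (1.00 to 1.05), and PTGDR, at -0.22 (-0.66 to -0.65). The male of batch 1 stood apart for SPP1, at 0.32 (0.03 to 0.06).

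The edge difference of batch 2 minus that of batch 1, tested as an interaction, was -1.87 for FOS, -1.09 for ZFP36, -0.95 for JUN and -0.71 for DUSP1 on the log2 scale. It was 1.5 for STAB1, 0.71 for C1QC and 1.51 for IFI27. FOS and ZFP36 were called in all 19 alternatives of this fit, JUN in 18, STAB1 and IFI27 in 17, C1QC in 16 and DUSP1 in 14. Outside the tissue, which no comparison used, spots 1 step away held a median of 126 UMIs, and PLA2G2A reached a mean of 932 CPM there.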

How the results depend on the processing

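The number of genes called between edge and interior was 312 and stayed within 1.5 times of it when only library size was used (328), with limma-voom (373), with both classes thinned to one total (365), with the stricter and the outer edge (268 and 302), with all other tissue or only deep spots as interior (362 and 317), with the array border ignored (316) and with spots of at least 200 UMIs (325). It was 189 with DESeq2, 736 without the filter on low counts, 180 with all sections thinned to one total, 548 in spots of low neuron share and 202 in spots of high neuron share, the last chosen after the data were seen. Leaving out 1 section gave 222 to 425 genes and leaving out 1 specimen 80 to 518. Second-ring calls (94) were 201 without the filter and 68 to 184 with 1 section left out, the highest without section 3 of the female of batch 1. Batch differences (11) were 17 by library size, 97 without the filter and 3 to 55 with 1 section left out (3 without section 4 and 55 without section 1 of the female of batch 2). Sex differences (0) were 9 without the filter and 0 to 2 with 1 section left out. The cause of these changes was not tested.

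Edge and interior were paired by specimen in the main fit, since both come from the same sections. With no replicate block 0 genes were called (181 at an unadjusted p under 0.05 by edgeR), and with sections as samples and a replicate block by section 800 were called, 247 of them shared; the second ring then had 155 calls and the batch difference 11. Treating sections as samples ignores that they share a specimen and makes p-values too small.

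The log2 ratio of UMIs per spot stayed below 0, at -0.81 to -0.28 over the other definitions and -0.50 to -0.12 with 1 section left out. The difference in genes per spot turned to 0.13 at 1000 UMIs. Of 62 called genes followed through 35 alternatives, 55 were tested in all of them and the others in at least 29; 0 reversed where tested, and 19 were called in all 19 fits that left out a section or specimen. Calls were lost for 41 of the 62 without the male of batch 1, for 19 without the female of batch 2 and for 18 with DESeq2. Besides those named above, the calls lost with DESeq2 included ESAM, PTGDS, DNAJB1, GFRA3, FAM3B, PRKCD and PTGDR. Of the genes without a call, NEFL turned to -0.22, PVALB to -0.047 and SPP1 to -0.12 in spots of low neuron share, and PI16 to -0.21 in spots of high neuron share. With a section or specimen left out, LUM ran from -0.13 to 0.21 and PI16 from -0.12 to 0.46, both lowest without the male of batch 1. Depth limits the male of batch 2 most, and 4 specimens limit every test.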

Other observations

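The macrophage list lay lower at the edge than in the interior in 7 of 8 sections of batch 1 and higher in all 7 sections of batch 2; this split was seen in the data and was not tested as a list.

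In the authors' deposited table of Moran's I, a score of how strongly a gene's counts cluster in space within a section, the 247 genes called higher at the edge had a median score of 0.0143 and the 65 called lower 0.0443, against 0.00309 for the 9976 not called. In the same authors' deposited table, the median number of sections with an adjusted p under 0.05 was 6, 11 and 2 for these groups. SFRP4 scored 0.221 (12 of 15 sections), ACTA2 0.119 (14 of 15), SCN11A 0.113 (15 of 15) and TAC1 0.223 (15 of 15) in the authors' deposited table. These scores come from the same spots as the comparison of edge and interior and are a description only.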
